A study of Mus musculus with 2 samples.

Results

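Choroid plexus epithelial cells were followed in single-cell RNA sequencing of whole mouse cerebella at E16.5, as the barcodes with at least 50 UMIs of Ttr and at least 1 UMI of Folr1. A UMI (unique molecular identifier) marks 1 captured transcript. Barcodes entered if they held 1000 UMIs or more and 500 detected genes or more, with mitochondrial genes at 10% of UMIs or less. Of 33294 such barcodes, 747 met the rule, namely 501 of 16482 in the mutant library and 246 of 16812 in the control library. The mutant embryos carried Blbp-cre, Ctnnb1(ex3)fl/wt, with 1 allele floxed at exon 3, and Smarca4fl/fl, with both alleles floxed, and had cerebellar lesions. The control embryos were cre-negative, and the labels do not say which floxed alleles they carried. Blbp-cre acts in radial glia and neural progenitors, loss of the floxed exon of Ctnnb1 stabilises beta-catenin, and the product of Smarca4 is an ATPase of BAF, a complex that remodels chromatin. Per the labels' protocols, tissue was dissociated with papain and DNase, 7-AAD-positive dead cells were sorted out, and 3 samples of each genotype were pooled into 1 library. There was thus no replicate, no difference was tested, and every interval below is a 95% interval that covers counting error only.

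The choroid plexus epithelium is a secretory sheet that hangs in the brain ventricles and makes cerebrospinal fluid. It arises from the roof plate, the hindbrain plexus from the rhombic lip region beside the cerebellum, under Wnt and BMP signals and the transcription factors Otx2 and Lmx1a. Mature cells carry Ttr (transthyretin, a carrier of thyroid hormone and retinol-binding protein), the folate receptor Folr1, the potassium channel Kcnj13 and the water channel Aqp1, and they bear tufts of cilia.

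The promoters of Kcnj13 and Otx2, the markers that the rule did not use, are printed here with the search for a motif of OTX proteins, TAATCC or its reverse complement GGATTA. Both genes lie on the minus strand of GRCm38.p6, and each sequence is the 250 bases before a RefSeq transcription start, chr1:87394730-87394979 for Kcnj13 and chr14:48665110-48665359 for 1 of the 4 starts of Otx2. Capitals mark the motif.
Kcnj13: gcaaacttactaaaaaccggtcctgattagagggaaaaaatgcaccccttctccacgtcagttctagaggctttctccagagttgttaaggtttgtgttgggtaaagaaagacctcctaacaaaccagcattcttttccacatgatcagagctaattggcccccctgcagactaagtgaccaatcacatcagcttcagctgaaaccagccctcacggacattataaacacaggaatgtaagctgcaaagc
Otx2: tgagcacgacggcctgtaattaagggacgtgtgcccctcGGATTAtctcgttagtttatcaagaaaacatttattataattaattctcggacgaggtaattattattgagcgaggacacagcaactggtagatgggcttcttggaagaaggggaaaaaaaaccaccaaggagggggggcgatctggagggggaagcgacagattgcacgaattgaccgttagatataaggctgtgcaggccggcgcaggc
The Otx2 match began 211 bases before the start. Over windows of 300 bases, which reached from 250 bases before to 50 bases after each start, the motif was found in 1 of 12 windows of Kcnj13, Otx2, Trpm3, Slc4a10, Kcne2 and Slc31a1, against 2320 of 32851 RefSeq windows of the mouse (7.06%). A match is a string of letters and was not tested as a binding site.

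The members of the libraries had nearly the same Ttr distribution. In mutant members Ttr ran from 53 to 18345 UMIs with a median of 3281, and in control members from 74 to 12293 with a median of 3625. As a share of the cell's UMIs the median was 22.2% in mutant members (quartiles 14.3% and 29.5%) and 22.4% in control members (12.9% and 30.3%). The highest single share was 48.9% in the mutant and 45.6% in the control library. Folr1 had a median of 10 UMIs in both. These values chose the cells and are a description. Just inside the threshold the lowest mutant members had 53, 70 and 78 UMIs of Ttr, and just outside it mutant cells with Folr1 had 47, 45 and 29. The lowest control members had 74, 82 and 118 UMIs, and control cells just outside had 40, 37 and 29. The threshold fell in a thinly filled range, since 428 of 501 mutant and 212 of 246 control members had at least 1000 UMIs of Ttr. Another 53 mutant and 27 control barcodes had at least 50 UMIs of Ttr but none of Folr1.

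Ttr was low outside the members, where free RNA can give UMIs. Other cells had a median of 3 UMIs of Ttr in the mutant and 1 in the control library. Barcodes with at least 80% haemoglobin UMIs, which should lack the gene, had a mean of 2.37 UMIs in the mutant library (4015 barcodes, median depth 8843 UMIs) and 0.973 in the control library (3690 barcodes, 9044 UMIs). The ratio of a gene's mean UMIs in those barcodes to its mean in members is called the background share here. Members had a median of 17439 UMIs and 3937 genes in the mutant and 19500.5 UMIs and 4116 genes in the control library. Scrublet called 49 mutant members (9.78%) and 25 control members (10.2%) as doublets. Of cell barcode sequences, 123 occurred in both libraries, and 2 mutant members and 1 control member carried one of them.

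A group of 11 control barcodes stood apart and has to be named before any comparison. They held 81569 to 150815 UMIs each, the next control member held 70163, and 0 mutant members exceeded 80000. The deepest filtered barcode of the mutant library held 131568 UMIs but did not meet the member rule. In the 11 control barcodes Ttr was 0.956% to 1.35% of UMIs, Folr1 was 1 to 10 UMIs, and haemoglobin was 15.7% to 18.8%. They made up 23.2% of the control members' UMIs, but held 53.8% of the UMIs of neuron markers, 63.3% of astroglial, 49.8% of granule-lineage, 77.1% of microglial and 73.0% of erythroid marker UMIs, against 1.51% of those of Ttr, Folr1, Kcnj13 and Otx2 together. Scrublet called 0 of the 11. When each was thinned at random to 20000 UMIs, the median ratio of variance to mean across the 11 barcodes was 0.932 over 531 genes, where 1 is sampling noise alone. The 11 control members next in depth, at 38342 to 70163 UMIs, gave 2.79 over 529 genes. The 11 barcodes thus differed from each other by no more than sampling noise, while the members next in depth differed by more. Results are given with and without them. A narrower choice, made after the data were seen and called restricted members below, kept cells with Ttr at 5% of UMIs or more, haemoglobin under 5% and no Scrublet call, which left 392 mutant and 188 control members and none of the 11.

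**Figure D1:**
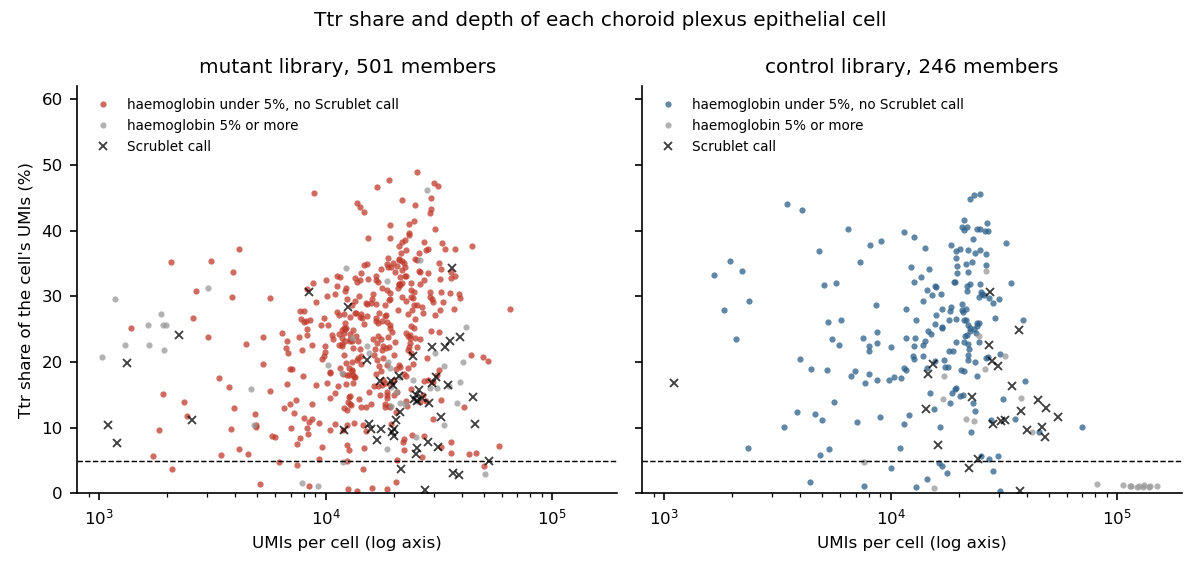
Ttr share of UMIs (percent) against UMIs per cell (log axis) for the 501 mutant members, left, and the 246 control members, right. Each point is 1 cell, grey points have haemoglobin at 5% of UMIs or more, crosses are Scrublet calls, and the dashed line is 5%. The 11 control barcodes over 80000 UMIs lie at the lower right with about 1% Ttr, and the mutant panel has no such points.

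In that plot most cells of both libraries lie between 5% and 48.9% Ttr, and the panels overlap up to 45.6%, the highest control share. Below the 5% line were 22 mutant members (4.39%) and 25 control members (10.2%), and 11 of those 25 were the deep barcodes.

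Most members carried the markers that the rule did not use. The values are a description, because the same cells were chosen on Ttr and Folr1. At least 1 UMI of Kcnj13 was found in 75.05% of mutant and 74.0% of control members, and of Otx2 in 88.8% and 91.1%. Kcnj13 stood at 193 CPM in mutant members and 165 CPM in control members, where CPM is the gene's share of all UMIs summed over the cells scaled to 1e+06, and at 2.20 and 1.39 CPM in the other cells. Otx2 stood at 283 CPM in mutant members and 234 CPM in control members, and at 68.8 and 102 CPM in the other cells. The 20 genes most enriched over other cells were largely those of a transporting epithelium. They included Kcne2, a subunit of potassium channels, at 442 and 397 CPM (other cells 0.548 and 0.278), the sodium bicarbonate transporter Slc4a5, the chloride channel protein Clic6 (174 and 161 CPM), the carbonic anhydrase Car12, the serotonin receptor Htr2c (1443 and 963 CPM), keratin Krt18 and Aqp1 (88.0 and 87.3 CPM).

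**Figure D2:**
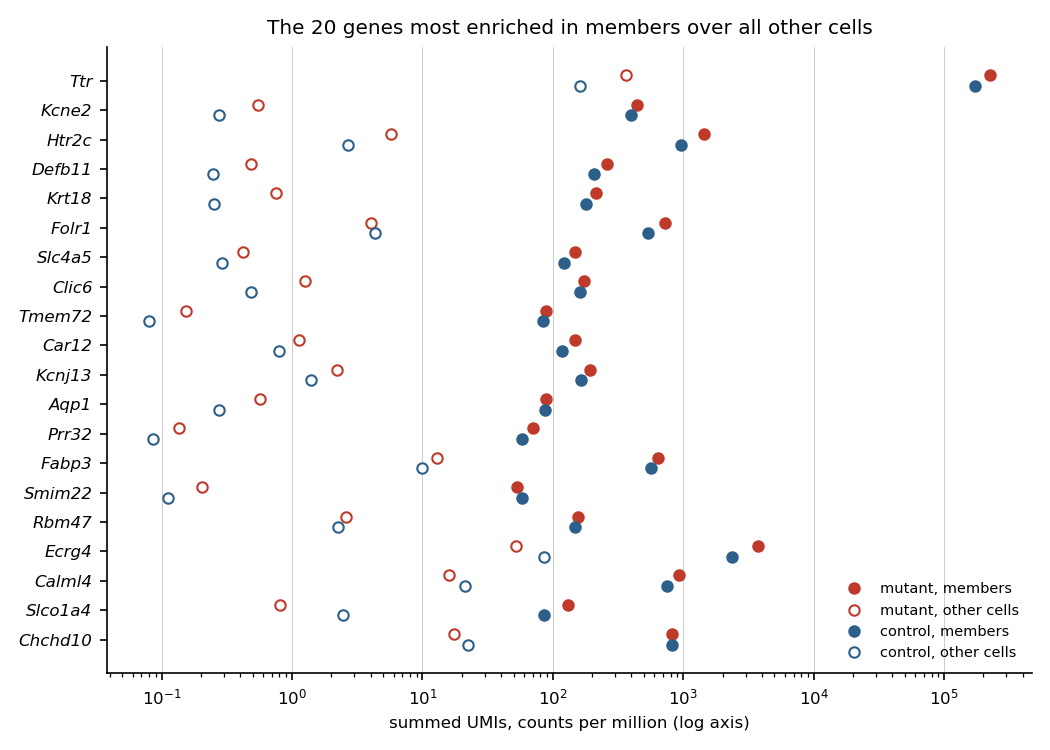
Summed UMIs in CPM (log axis) of the 20 genes with the highest enrichment over other cells, in members (filled) and in all other cells (open) of the mutant (red) and the control library (blue). Filled points of a gene lie close together in the libraries and far to the right of the open points.

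The plot of these 20 genes shows members of the libraries side by side. For Kcne2, for example, the 442 CPM of mutant and 397 CPM of control members stand against less than 1 CPM elsewhere. Neighbouring types share some of the members' regulators. Summed over 7 roof plate markers, mutant members reached 459 CPM and control members 342 CPM, against 52.9 and 55.2 CPM in the other cells. Roof plate-marker cells, which had Lmx1a and Msx1 but under 50 UMIs of Ttr, numbered 153 in the mutant and 250 in the control library. Otx2 was 281 CPM in those mutant and 368 CPM in those control cells, near the level in members, but Aqp1 was 0.33 and 0 CPM. Because low Ttr was part of how these cells were chosen, their difference from members is a description. Motile cilia genes were on in members as well. Mlf1, a gene of ciliated cells, was detected in 93.0% of mutant and 93.5% of control members, and Foxj1, the master regulator of motile cilia, in 71.1% and 70.7%. Tmem212, an ependymal marker, had 0 UMIs in members of both libraries. It was the only gene at 0 among 9 markers of motile ciliated ependymal cells, a list that also holds Foxj1 and Mlf1. Summed over that list, mutant members reached 1173 CPM against 85.6 CPM in the other mutant cells. Control members reached 928 CPM against 76.1 CPM. The absence of Tmem212 thus does not extend to the list.

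Choroid plexus cells made up a larger share of the mutant library. They were 3.04% of filtered mutant barcodes (interval 2.78 to 3.31) and 1.46% of filtered control barcodes (1.29 to 1.66), a ratio of 2.08 (1.78 to 2.43). Without the 11 deep barcodes the control share was 1.40% and the ratio 2.17. Restricted members were 2.38% of mutant and 1.12% of control barcodes, a ratio of 2.13. With 1 pool per genotype, more plexus cells, fewer cells of other types, and more plexus tissue taken or surviving dissociation cannot be told apart.

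The targeted genes came out as follows. Smarca4 lies on the plus strand of GRCm38 chromosome 9, from 21616169 to 21704230 (ENSMUSG00000032187). It was 22.7 CPM (19.7 to 26.0) in mutant and 28.3 CPM (24.1 to 32.9) in control members, a log2 ratio of -0.31, and 51.3 and 69.8 CPM in the other cells. In restricted members it was 21.4 and 29.4 CPM, a ratio of 0.73 (0.56 to 0.95). The labels do not name the floxed exons of Smarca4, and a 3' tag may lie outside the deleted part. Ctnnb1 (ENSMUSG00000006932, chromosome 9, 120929216 to 120960507, plus strand) was 91.4 CPM in mutant members and 80.1 CPM in control members, but 87.4 and 87.5 CPM in restricted members. Its 3' tag lies outside the floxed exon and checks nothing. Fabp7, the gene also called Blbp, was 467 CPM in mutant members and 848 CPM in control members, yet 303 CPM in mutant restricted members and 201 CPM in control ones. Haemoglobin-rich barcodes thinned to 3000 UMIs had a UMI of Fabp7 about as often as members, in 33.7% of mutant and 30.4% of control barcodes, against 32.3% of mutant and 34.5% of control members. The background share of its summed level was 0.141 in mutant and 0.0547 in control members, and 0.224 and 0.315 in restricted members. Whether members had undergone recombination was not tested.

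Across genes, 8928 reached 10 CPM in members of at least 1 library. A gene was called higher or lower where its CPM differed by 1.5-fold or more and the counting interval of the ratio left out 1. In all members 545 genes (6.1% of those tested) were called higher and 654 (7.33%) lower in the mutant library, with a median log2 ratio of 0.06. With Ttr left out of the totals the split was 1025 higher and 582 lower. Without the 11 deep barcodes 236 genes (2.65%) were higher and 375 (4.21%) lower. In restricted members 315 (3.64%) were higher and 383 (4.43%) lower of 8653, with a median log2 ratio of 0.00. Of the 654 genes lower in all members, 224 changed sign in restricted members, as did 14 of the 545 higher ones.

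The extreme ratios in all members included genes of other cell types and genes carried by few barcodes. S100a9, S100a8 and Cstdc5, genes of neutrophils, were the 3 highest ratios with log2 values of 7.24, 6.75 and 5.59, and 1 mutant barcode held 98.9% or more of the UMIs of each in its library. Among the 12 lowest ratios were genes of granule cells and neurons. The granule-lineage regulator Barhl1 was 11.8 CPM in mutant members and 78.8 CPM in control members, and Mfap4 was 5.01 and 104 CPM. The deep barcodes held 71.3% of the control UMIs of Barhl1 and 69.2% of those of Mfap4. Without them the log2 ratios were -1.25 for Barhl1 and -2.83 for Mfap4. Other genes in this group were Pax6 (-2.24, and -1.67 without the deep barcodes), Neurod1 (-2.01 and -1.52), Insm1 (-2.29 and -1.72), Nnat (-2.10 and -0.82), Nrn1 (-2.09 and -1.16), Aldoc (-2.40 and -1.22), Shf (-2.01 and -0.85), Fxyd6 (-1.92 and -0.75), Nrxn3 (-2.03 and -2.30) and Hs3st5 (-1.81 and -2.11). For Hs3st5, 26.7% of the control UMIs were in 1 cell, and in restricted members that share was 41.9%.

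The sums of other types' markers moved with these genes. The 10 neuron markers summed to 631 CPM in mutant members and 1484 CPM in control members, the 10 granule-lineage markers to 186 and 538 CPM, the 9 astroglial markers to 664 and 1064 CPM and the 8 erythroid markers to 32832 and 56230 CPM. Without the 11 deep barcodes the control sums were 893 CPM for neuron, 351 CPM for granule-lineage, 509 CPM for astroglial and 19749.9 CPM for erythroid markers, so the astroglial and erythroid sums were then higher in mutant members. In restricted members the neuron markers summed to 406 and 470 CPM and the astroglial markers to 485 and 394 CPM. None of the neuron, granule-lineage and astroglial markers was at 0 in either library. Markers of the mutant lesion cells ran the other way, at 173 CPM in mutant members and 16.1 CPM in control members, with 1528 and 27.5 CPM in the other cells. In restricted members these 7 lesion markers, of which Wif1 and Notum are also Wnt targets, still summed to 85.6 CPM in mutant cells, against 16.8 CPM in control cells, and all 7 were higher in the mutant. Their background differed the same way. Haemoglobin-rich barcodes had a mean of 0.415 UMIs of these markers in the mutant and 0.0100 in the control library. All members had means of 3.17 and 0.382 UMIs. The marker list was made with earlier results of these data known. The part of other types' markers in any single gene's ratio was not tested. The text below leads with restricted members. Over all genes tested there, 3.64% were called higher and 4.43% lower, so few or no calls in a short list lie near those shares.

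List medians of secretory and transport genes, the working equipment of the epithelium, lay between -0.18 and 0.14 in restricted members. Most of these genes stood higher in mutant cells before the restriction. Single genes differed more, among them Penk, at 97.6 CPM in mutant and 242 CPM in control restricted members. Of 22 fixed genes for secreted products 21 were tested; in restricted members 2 were called higher (Igfbp7 and Ptn) and 2 lower (Penk and Kl), with a median log2 ratio of 0.14. Igfbp2, which binds insulin-like growth factors, was 2258 CPM in mutant restricted members and 1853 CPM in control ones. Igf2 was 138 and 97.0 CPM, and Clu (clusterin) 619 and 475 CPM. These last 3 passed the call in all members, at 2045 and 1363 CPM for Igfbp2, 126 and 66.6 CPM for Igf2 and 567 and 357 CPM for Clu. Sostdc1, a secreted Wnt and BMP modulator, was 1295 CPM in mutant restricted members and 1203 CPM in control ones. Kl (klotho) was 9.19 and 18.4 CPM.

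Ion and water transport genes gave 0 higher calls among 25 tested in restricted members, with a median of -0.18. The cation channel Trpm3 was 2621 CPM in mutant restricted members and 2500 CPM in control ones, and the bicarbonate transporter Slc4a10 was 538 and 530 CPM. Kcne2 was 499 and 609 CPM, and Aqp1 97.9 and 124 CPM. In all members the same list had a median of 0.22, with Slc12a2 and Car14 higher and Fxyd6 among the lower calls.

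Solute transport genes gave 1 higher call (Lrp2, an endocytic receptor) and 1 lower call (Slc23a2) among 22 tested, with a median of -0.09 in restricted members and 0.15 in all members. Slc23a2, the vitamin C transporter, was 84.6 CPM in mutant restricted members and 147 CPM in control ones, detected in 44.4% and 60.6% of them. Over all members it was 77.7 and 97.1 CPM and not called. Barrier and polarity genes gave Prom1 higher and Krt8 lower among 17 tested. Keratin 8 gene Krt8 was 43.1 CPM in mutant restricted members and 65.8 CPM in control ones, while ezrin, Ezr, was 679 and 602 CPM.

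Some regulators of plexus identity were near level and others were called. Otx2 was 304 CPM in mutant restricted members and 302 CPM in control ones, Lmx1a 106 and 112 CPM, and Msx1 317 and 288 CPM. Among 17 such transcription factors tested, Nr2f2 was called higher, and Lmx1b and Meis1 lower. Nr2f2 (COUP-TFII) was 177 CPM (167 to 187) in mutant restricted members and 113 CPM (102 to 126) in control ones. Meis1, also a member of the hindbrain positional list, was 68.5 and 112 CPM, but 1 control cell held 16.9% of its control UMIs. Of 5 hindbrain positional genes tested, Irx5 was higher, at 15.6 and 7.95 CPM, and Meis1 and Hoxb2 were lower, with Hoxb2 at 6.46 and 10.4 CPM. Genes of the forebrain and midbrain did not reach 10 CPM in restricted members of either library. The multiciliogenesis list gave 0 higher and 2 lower calls among 25, both of them early regulators of centriole amplification. Mcidas was 16.2 CPM in the mutant cells and 25.7 CPM in the control cells, and Cdc20b 32.0 and 63.9 CPM, and 20.2% of the control UMIs of Mcidas were in 1 cell. Foxj1, at 122 and 126 CPM, and Mlf1, at 515 and 523 CPM, were close.

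**Figure D3:**
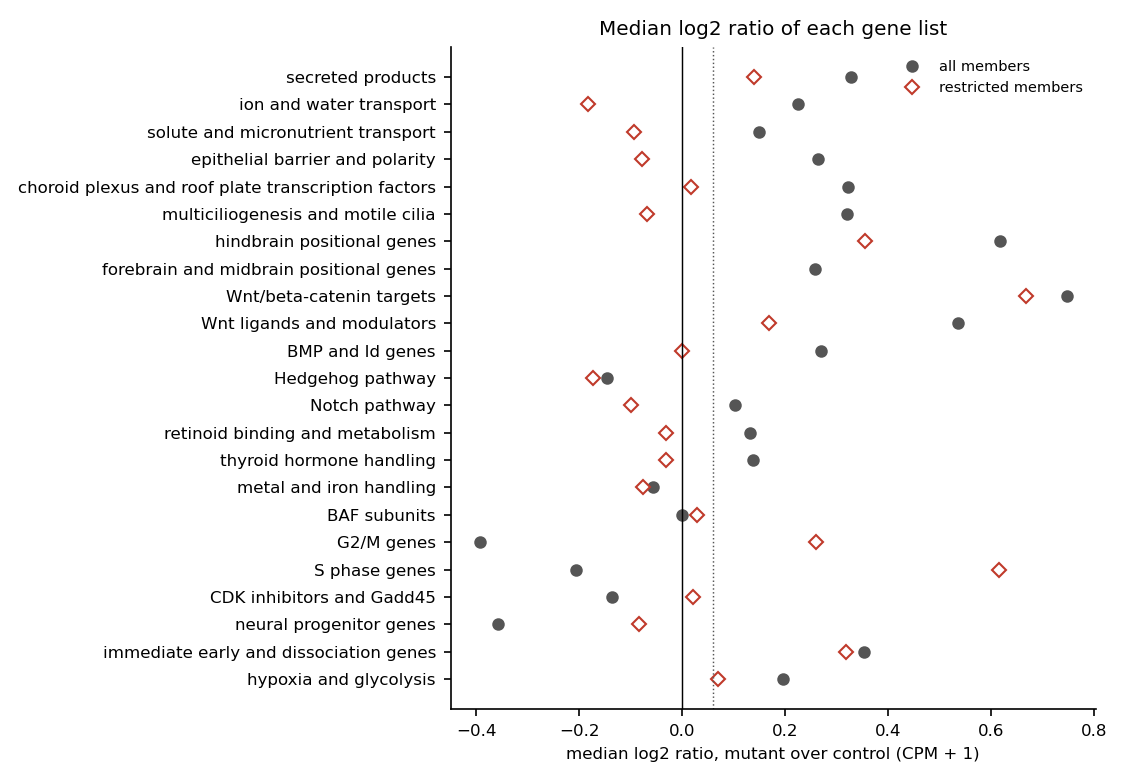
Median log2 ratio of mutant over control for the tested genes of each list, in all members (grey circles) and in restricted members (open diamonds). The dotted line is the median of all genes in all members, 0.06, and the forebrain and midbrain list has no diamond because 0 of its genes were tested there. Wnt targets lie right of 0 with both choices, at 0.75 and 0.67, while the cell cycle lists lie left of 0 with all members and right of it with restricted members.

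The plot of list medians places most plexus lists between 0.15 and 0.33 in all members and between -0.18 and 0.14 in restricted members, so the direction of the transport, barrier and cilia lists depended on which members were summed. Without the 11 deep barcodes alone, the medians were -0.15 for ion and water transport, -0.18 for solute transport, -0.03 for barrier genes and -0.04 for cilia genes.

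Targets of Wnt/beta-catenin signalling were the list with the highest median in restricted members. Of 18 fixed targets 9 were tested. In restricted members 6 were called higher and none lower, while 3.64% of all genes were called higher and 4.43% lower. The median log2 ratio was 0.67 against 0.00 for all genes tested. In all members the count was 5 of 9, and without the 11 deep barcodes 6 of 9. The lesion markers, at 85.6 CPM in mutant and 16.8 CPM in control restricted members, moved with these targets, and their part was not tested. Axin2, a feedback inhibitor of the pathway, was 38.8 CPM (34.3 to 43.7) in mutant and 18.7 CPM (14.3 to 24.0) in control restricted members, a ratio of 2.08 (1.57 to 2.79), and was detected in 39.8% and 25.5% of cells. Nkd1, another feedback inhibitor, was 51.8 CPM (46.6 to 57.5) and 26.0 CPM (20.8 to 32.2), with a background share of 0.18 in the mutant library. Sp5, a transcription factor induced by Wnt, was 28.3 and 17.4 CPM, Apcdd1, a membrane inhibitor, 15.2 and 8.87 CPM, and the cyclin gene Ccnd1 43.8 and 27.5 CPM, with 33.3% of the control UMIs of Ccnd1 in 1 cell. Lef1, Znrf3 and Tnfrsf19, also targets, were not called, at 63.6 and 66.7 CPM for Lef1, 41.2 and 48.3 CPM for Znrf3 and 43.2 and 30.3 CPM for Tnfrsf19.

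Wif1, a secreted Wnt inhibitor that marked the lesion cells, was the target with the highest ratio. It had 160 UMIs in mutant and 2 UMIs in control restricted members, or 23.0 and 0.61 CPM, a ratio of 37.6 (10.2 to 313). The other cells of the mutant library had 312 CPM, against 2.43 CPM in control, and its background share in mutant restricted members was 0.22. The UMIs lay in 14.8% of mutant restricted members, and 1 cell held 33.75% of them. Without that cell Wif1 had 106 UMIs, or 15.3 CPM, a ratio of 25.03 (6.76 to 209). For Axin2 and Nkd1 too the other cells were higher in the mutant library, at 116 and 18.6 CPM for Axin2 and 475 and 100 CPM for Nkd1. When each restricted member was thinned to 5000 UMIs, 3 of the targets were called; the log2 ratio was 0.32 for Axin2, past no threshold, 0.68 for Nkd1 and 4.51 for Wif1.

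Per cell the Wnt difference was small. After thinning each cell to 3000 UMIs, 19.9% of mutant members (16.4 to 23.8, 95 of 477) and 15.1% of control members (10.8 to 20.3, 36 of 238) had at least 2 UMIs over 10 target genes, and the intervals overlapped. In other cells the shares were 61.0% and 26.4%, and in haemoglobin-rich barcodes 2.67% and 0.151%. Without thinning they were 77.2% in mutant and 70.7% in control members. These shares are of all members. Among restricted members thinned to 3000 UMIs, the share was 2.84 percentage points higher in the mutant library.

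A Wnt ligand secretion gene and both R-spondin genes named here were called higher in restricted members. Wls, which carries Wnt ligands to the cell surface, was 447 CPM (432 to 463) in mutant and 291 CPM (273 to 310) in control restricted members, and was 125 and 63.7 CPM in the other cells. Thinned to equal depth its log2 ratio was 0.45, short of 1.5-fold. Rspo2, a ligand that strengthens Wnt signals, had 150 UMIs in mutant and 8 UMIs in control restricted members, or 21.5 and 2.45 CPM, a ratio of 8.80 (4.35 to 20.8), and was found in 16.1% and 2.66% of cells. Rspo2 in the other cells was 5.64 CPM in mutant cells, against 7.66 CPM in control cells, and its background share was 0.0039 in the mutant and 0.083 in the control library. Rspo3 was 13.5 and 4.28 CPM. These 3 were the calls among 7 tested modulators, none was lower, and the median was 0.17.

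BMP and Id genes were level, with 1 higher call (Bambi) and 1 lower call (Bmpr1b) among 16 and a median of 0.00. Bambi, an inhibitory pseudoreceptor for BMP, was 26.0 CPM in mutant restricted members and 12.9 CPM in control ones. Id1 was 352 and 354 CPM. Of 8 Hedgehog genes Gas1, a co-receptor, was higher at 74.9 and 42.2 CPM, and Sufu and Boc were lower. Of 5 Notch genes Hes5 was higher, and none was lower. BAF subunits gave 0 calls among 22 with a median of 0.03, and Smarca2, the other ATPase, was 84.6 CPM in mutant restricted members and 85.0 CPM in control ones. Thyroid hormone, metal and hypoxia genes gave 0 calls among 7, 9 and 16 tested, and retinoid genes gave 1, Cyp26b1, which was lower. Of 14 immediate early genes Fosb and Atf3 were higher, with a list median of 0.32. Of 6 CDK inhibitor and Gadd45 genes Cdkn1a was lower, at 52.0 CPM in mutant restricted members and 89.6 CPM in control ones, while Cdkn1c, an inhibitor tied to cell cycle exit, was 451 and 337 CPM. Of 14 neural progenitor genes Fabp7 and Hes5 were higher and Pax6 and Aldoc lower.

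Cell cycle genes changed direction with the choice of members. In restricted members 19 of 33 S phase genes and 7 of 34 G2/M genes were called higher and none lower, with medians of 0.62 and 0.26. In all members 1 S phase gene was higher and 7 were lower of 36, and 0 G2/M genes were higher and 14 lower of 37. Without the 11 deep barcodes alone 2 S phase genes were higher and 0 lower, while 0 G2/M genes were higher and 10 lower. Over all genes tested, 3.64% were called higher and 4.43% lower in restricted members, and 6.1% and 7.33% in all members. Without the deep barcodes those shares were 2.65% and 4.21%. Rrm2, a subunit of ribonucleotide reductase, was 29.4 CPM in mutant restricted members and 11.9 CPM in control ones, Tyms, thymidylate synthase, 33.0 and 13.5 CPM, and the replicative helicase gene Mcm3 20.4 and 9.48 CPM. Mki67 was 32.3 and 23.9 CPM and Top2a 71.8 and 61.2 CPM, neither of them called. Among all members thinned to 3000 UMIs, a UMI of Mki67 or Top2a was found in 14.7% of mutant members (11.6 to 18.2, 70 of 477) and 15.1% of control members (10.8 to 20.3, 36 of 238), with 3.13% and 4.19% in haemoglobin-rich barcodes. Unthinned, the shares of all members were 29.9% and 36.2%. Among restricted members thinned to 3000 UMIs, the share was 3.57 percentage points higher in the mutant library.

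Few genes kept their call across choices of members. Called alike in all members, in restricted members and in restricted members thinned to 5000 UMIs, with no cell holding over 20% of a library's UMIs, were 51 higher genes (0.618% of 8251) and 19 lower genes (0.23%). This list was chosen on these values and is a description. Rtl4, a gene derived from a retrotransposon, was 161 CPM (152 to 171) in mutant and 70.4 CPM (61.6 to 80.1) in control restricted members, and a UMI was found in 27.4% (23.0 to 32.2) of 383 mutant and 12.7% (8.23 to 18.5) of 181 control cells of these thinned to 3000 UMIs. Abcg5, a sterol transporter subunit, was 41.5 and 20.5 CPM and almost absent from other cells, at 0.18 and 0.02 CPM. Bhmt, an enzyme of methionine metabolism, was 40.6 and 19.9 CPM, and A2m, a secreted protease inhibitor, 102 and 56.9 CPM. Hist1h1b, a linker histone gene, was 106 and 15.6 CPM, and the transcription factor genes Foxp2 and Zic2 were 77.4 and 43.4 CPM and 62.7 and 39.5 CPM. Nog, which encodes the BMP antagonist noggin, was 22.3 and 11.01 CPM. The leptin receptor gene Lepr was 27.9 and 15.6 CPM and Calcrl, a receptor for adrenomedullin and related peptides, 21.0 and 9.48 CPM. Foxp2 and Tmem132c were also higher in the other mutant cells, at 307 against 101 CPM for Foxp2 and 458 against 45.1 CPM for Tmem132c. So were Rtl4, at 37.2 against 12.3 CPM, Nog, at 12.2 against 3.57 CPM, and Calcrl, at 21.9 against 12.4 CPM. Lepr was 5.28 against 2.15 CPM there, Zic2 159 against 122 CPM and A2m 8.23 against 6.73 CPM. Hist1h1b and Bhmt were lower there, at 137 against 171 CPM and 0.21 against 0.24 CPM.

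Penk, the gene for proenkephalin, was the most abundant plexus-enriched gene among the lower ones. It was 97.6 CPM (90.4 to 105) in mutant and 242 CPM (225 to 259) in control restricted members, a ratio of 0.40 (0.36 to 0.45), and 4.95 and 5.97 CPM in the other cells. In restricted members thinned to 3000 UMIs, Penk was found in 13.3% (10.1 to 17.1) of mutant and 31.5% (24.8 to 38.8) of control cells, intervals that did not overlap, with 0.13% and 0.15% in haemoglobin-rich barcodes. Nfib, a nuclear factor I gene, was 166 and 267 CPM, and was also lower in the other mutant cells, at 755 against 1160 CPM. Mecom, a zinc-finger transcription factor gene, was 14.8 and 37.0 CPM, Slc38a3, a glutamine transporter gene, 17.2 and 32.7 CPM, and Defb9, a beta-defensin gene, 9.91 and 23.6 CPM. Fdps and Idi1 encode enzymes of the isoprenoid pathway that feeds cholesterol synthesis. Fdps was 41.1 and 63.3 CPM and Idi1 23.0 and 37.6 CPM. Both were also lower in the other mutant cells, at 120 against 172 CPM and 69.2 against 97.1 CPM. Slc38a3 was 6.26 against 8.59 CPM there, while Mecom was higher, at 28.0 against 23.9 CPM.

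**Figure D4:**
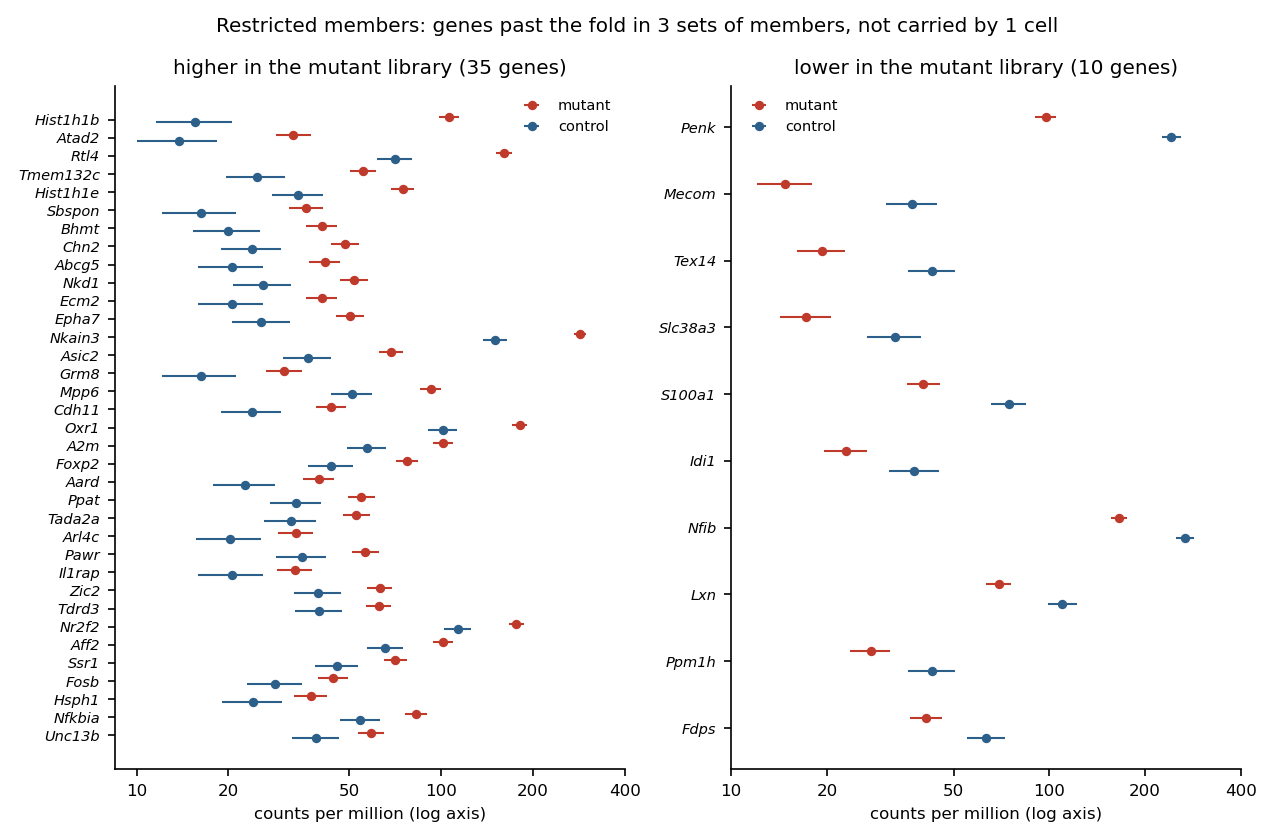
CPM in restricted members (log axis) of the genes called alike in those 3 sets of members with at least 30 CPM in the higher library, 35 higher (left) and 10 lower (right), mutant in red and control in blue, with 95% counting intervals. Hist1h1b has the widest gap on the left and Penk the highest control level but one on the right, after Nfib.

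The plot of these genes shows that the fold of most was modest. Nr2f2, at 177 against 113 CPM, is near the weak end and Rtl4, at 161 against 70.4 CPM, among the stronger. The highest ratios in restricted members by the naming rule, beyond genes carried by 1 mutant barcode, included Hist1h1b (log2 2.69), Pclaf (1.35), Rtl4 (1.18), Tmem132c (1.13), Hist1h1e (1.12), Nkd1 (0.97) and Epha7 (0.94). Pclaf, in contrast, was called lower in all members, at a log2 ratio of -1.38. The lowest included Dcc (-2.57), Reln (-2.26), Lsamp (-1.89) and Robo2 (-1.54), for which 1 control cell held 43.6%, 30.0%, 45.9% and 34.1% of the control UMIs. These are genes of neurons and axon guidance. Each was found in a larger share of control than of mutant restricted members. The shares were 68.1% and 34.9% for Dcc, 23.9% and 9.18% for Reln, 34.0% and 23.7% for Lsamp and 33.0% and 21.2% for Robo2. Cells were not thinned to equal depth for these shares. All were still called lower when restricted members were thinned, at log2 ratios of -2.24, -2.07, -1.525 and -1.39. Their ratios without the top control cell were not computed. Of the 12 highest ratios in all members, Robo1 and Lingo2 turned to -0.13 and -0.30 in restricted members, and Pcdh15 and Runx1t1 were among the other names, at 2.28 and 1.46 in all members.

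Within each library the members formed a gradient. Restricted members were divided by Ttr share into 3 groups of near equal size, 131, 131 and 130 mutant cells and 63, 63 and 62 control cells, and levels were taken as CPM of the UMIs other than Ttr. Groups were cut within each library and so were not matched on Ttr share. Mutant groups spanned 5.11% to 19.2%, 19.2% to 28.6% and 28.6% to 48.9% Ttr. Control groups spanned 5.16% to 21.0%, 21.3% to 29.9% and 30.2% to 45.6%. Because the same cells set the order and the levels, this is a description. In the lowest, middle and highest group, solute transport genes summed to 1886, 2882 and 3947 in the mutant and 1980, 3397 and 4154 in the control library. Secreted products other than Ttr summed to 9026, 10813 and 14908 in the mutant and 7425, 11065 and 14781 in the control library. Aqp1 was 37.7, 147 and 208 in mutant cells and 61.6, 217 and 242 in control cells, and Kcnj13 was 116, 274 and 486 in mutant and 173, 356 and 527 in control cells. Fxyd1, a regulator of the sodium pump, was 96.9, 356 and 1024 in mutant and 221, 609 and 1487 in control cells. Both libraries thus ran the same way for these genes. Control cells had the higher value of Aqp1, Kcnj13 and Fxyd1 in each group, but the cuts between groups also lay at higher Ttr shares in that library.

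Cycling genes ran against Ttr. Neural progenitor genes fell only slightly, at 3914, 3210 and 3116 in mutant and 3752, 3509 and 3323 in control cells. A thinned UMI of Mki67 or Top2a was found in 31.7%, 8.53% and 3.91% of mutant cells from the lowest to the highest group, and in 22.6%, 10.0% and 0% of control cells, where 0 of 59 allows a share of up to 6.06%. G2/M genes summed to 4954, 2387 and 706 in the mutant and 4298, 1040 and 781 in the control library. Which library was higher in the lowest group depended on the choice of members. With Ttr at 5% of UMIs or more as the only restriction, that group had 27.0% cycling cells in the mutant and 31.9% in the control library. G2/M genes there summed to 4023 in mutant and 5628 in control cells. The Wnt readout was 31.0%, 17.1% and 5.47% in mutant and 22.6%, 16.7% and 5.08% in control cells. Axin2 was 88.4, 40.7 and 25.4 in mutant and 36.3, 23.4 and 12.7 in control cells. Mutant cells thus had the higher Axin2 level in each group, though the groups were not matched on Ttr share. Lesion markers, at 213, 58.6 and 67.1 in mutant and 44.0, 12.3 and 7.03 in control cells, were also higher in the mutant in each group. Wls was 904, 501 and 380 in mutant and 436, 398 and 326 in control cells. Rspo2 lay in the low-Ttr mutant cells, at 62.5, 22.1 and 1.13, against 6.60, 2.47 and 0 in control cells.

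Some regulators had such a slope and others did not, and these genes were picked after their values were seen. Gli3, a transcription factor of the Hedgehog pathway, was 99.1, 41.9 and 18.6 in mutant and 58.3, 43.2 and 12.7 in control cells. Mcidas was 36.6, 21.5 and 6.77 in mutant and 63.8, 32.1 and 0 in control cells, and Cdc20b was 92.3, 28.1 and 6.77 in mutant and 185, 46.9 and 4.22 in control cells. Foxj1, which acts in cilia formation, had no such slope, at 148, 186 and 156 in mutant and 198, 152 and 152 in control cells. Otx2 also had none, at 368, 475 and 378 in mutant and 324, 490 and 415 in control cells. Penk was higher with more Ttr in both libraries, at 26.5, 93.3 and 269 in mutant and 150, 286 and 594 in control cells. It was lower in the mutant in each of these groups, which were not matched on Ttr share. Neuron markers summed to 912, 389 and 313 in mutant and 1021, 439 and 356 in control cells, so their level too was highest at low Ttr, and their part in the other slopes was not tested.

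**Figure D5:**
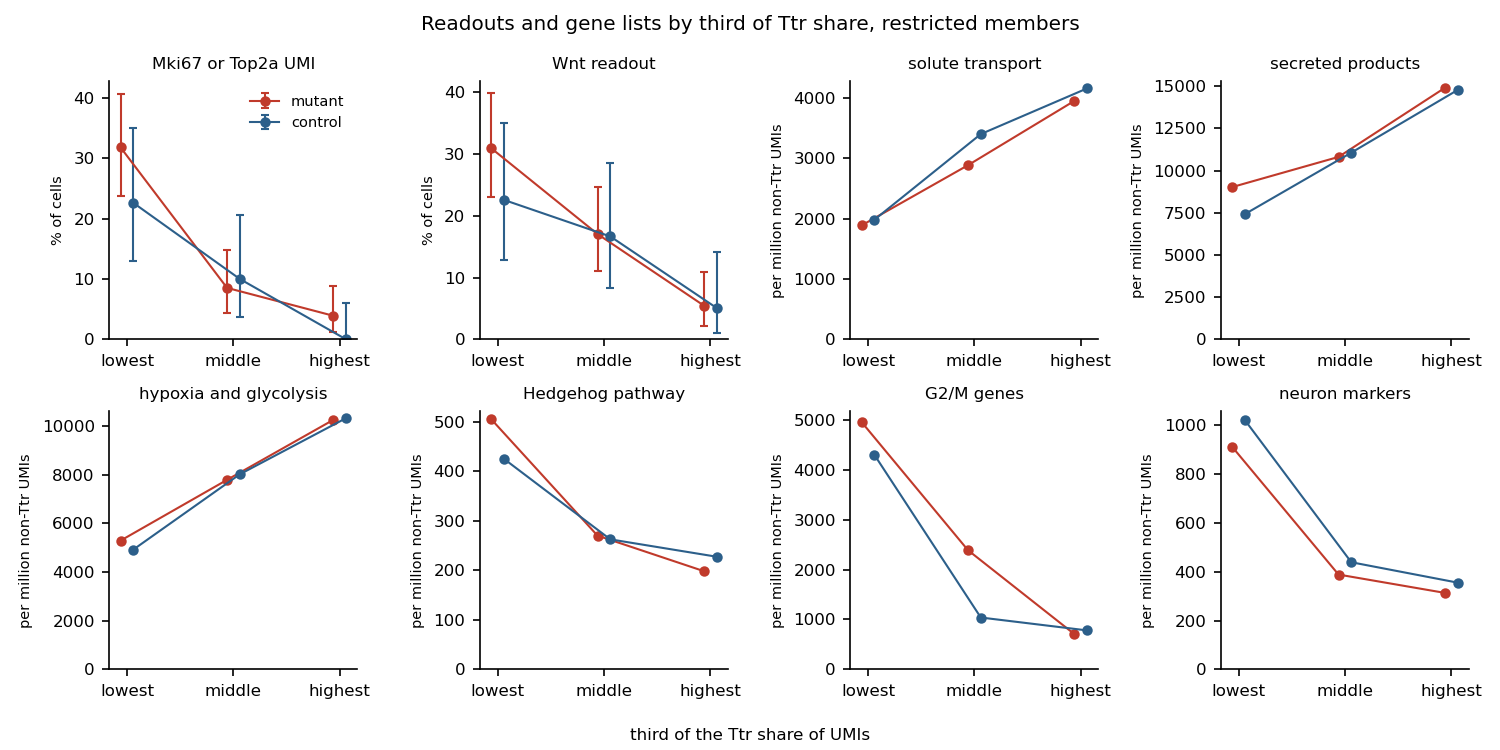
Per-cell readouts (percent of cells thinned to 3000 UMIs, with 95% counting intervals) and summed levels of 6 gene lists (CPM of the UMIs other than Ttr) in restricted members split by Ttr share, mutant in red and control in blue. The cycling and Wnt shares, Hedgehog, G2/M and neuron marker genes fall towards the highest group in both libraries, and the transport, secreted and hypoxia lists climb.

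The plot by Ttr share shows the lines of both libraries crossing or running close in most panels. The widest gap between the lines in the G2/M panel is in the middle group, at 2387 in mutant and 1040 in control cells. Over all members, cycling cells had a median Ttr share of 15.2% of UMIs, and the others 23.4%, in the mutant library, against 11.5% and 23.6% in the control library.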

How the data were processed

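Per the labels' protocols, 1 library per genotype was made from 3 pooled samples with a 10x Genomics 3' kit. The authors deposited unnormalized UMI counts for each gene and barcode. They used Cell Ranger 7.0.1 and mm10, per the submitters' processing notes. The labels and headers do not state intron counting, the annotation release or cell calling, and antisense or near-identical genes may share counts. Coordinates came from GENCODE M21 (GRCm38). Members and lists were chosen with earlier results of these data known.

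UMIs were summed over members, scaled to CPM and compared as log2 ratios, mutant over control, after 1 CPM was added to each. Intervals are exact Poisson, exact conditional binomial or Clopper-Pearson at 95%, for counting error only. Cells were thinned without replacement. Doublets were called with Scrublet in scanpy 1.11.5 at an expected rate of 16%, and calls were kept in all members. Named genes were the 12 highest and 12 lowest log2 ratios at 50 CPM or more with a background share under 0.5, without Gm, Rik, haemoglobin, ribosomal, mitochondrial or Y-linked genes and Xist and Tsix; other X-linked genes, such as Rtl4, were kept; the background share kept 0 genes out. The same ranking was applied to restricted members after the data were seen. From each list the genes called and those of highest level were named, and genes called in 3 sets of members, and those of the gradient, were chosen after their values were seen. Some transport genes are not reported here. Scripts were tested on simulated counts. Python 3.11.15, numpy 2.4.6, scipy 1.17.1, pandas 2.3.3 and matplotlib 3.10.9 were used. Alternatives covered the thresholds of the rule, scaling, pseudocount, minimum level, thinning, doublets and free RNA.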

Additional observations from a re-analysis of the deposited data

How the results depend on the processing

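No paired analysis was possible because each genotype had 1 library. The share ratio kept its direction under every alternative run, at 1.99 to 2.21, as did Smarca4, at a log2 ratio of -0.22 to -0.50, and the Wnt readout, at 2.84 to 6.51 percentage points higher in mutant members. The thinned cycling difference ran from -1.40 to 3.57 points and its sign was not stable; unthinned it was -6.24. Ctnnb1, at 0.19 in all members, was -0.030 with Ttr at 5% of UMIs or more, -0.00094 in restricted members and -0.018 without members over 80000 UMIs. Against 545 genes higher and 654 lower, a pseudocount of 5 CPM gave 337 higher, a minimum of 50 CPM gave 151 and 190, no minimum 992 and 1315, and leaving Ttr out of the totals 1025 higher. Thinning to 5000 UMIs gave 334 and 391, Ttr at 5% or more 241 and 379, restricted members 315 and 383, restricted and thinned 363 and 338, and leaving out members over 80000 UMIs 236 and 375. The last 4 choices were made after seeing the data. Among 432 comparisons of named genes 5 reversed. Those were Fxyd6 at 0.12, Shf at 0.027, Lingo2 at -0.30 and Robo1 at -0.13 in restricted members, and Fxyd6 at 0.034 when these were thinned. The causes were not tested. Precision is limited by 501 and 246 cells and by genes near 10 CPM, where intervals are wide.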
